A study of Homo sapiens with 6 samples.

Results

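RNA levels of 9 genes of the matrix metalloproteinase (MMP) system were examined in 6 samples of MDA-MB-231 tumors. The genes were chosen by name, as 6 MMPs (MMP1, MMP2, MMP3, MMP9, MMP13 and MMP14) and 3 tissue inhibitors of metalloproteinases (TIMP1, TIMP2 and TIMP3), and all 9 were found among the 60671 annotated genes of the matrix. MDA-MB-231 is an established line of triple-negative breast cancer cells of human origin. Wild-type cells of this line had been injected orthotopically, into mammary fat pads of female NSG mice aged 6 to 8 weeks, with Matrigel, and RNA was sequenced from the tumor core (TC, 3 samples) and the tumor margin (TM, 3 samples). Both zones therefore share the cell line, the host and the injection, and differ by position in the tumor. NSG mice lack T, B and natural killer cells but keep fibroblasts, vessels, muscle and myeloid cells. Values are TPM, a measure of transcript abundance corrected for transcript length, so levels of different genes can be set side by side, while the sequencing depth behind each value is unknown.

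MMPs are zinc-dependent proteases that cut proteins of the extracellular matrix. Most are secreted as inactive proenzymes, and MMP14 is held in the plasma membrane. TIMPs bind the active site of MMPs and block it. TIMP2 has a further role, because it bridges proMMP2 to MMP14 at the cell surface, where proMMP2 is activated. In many carcinomas fibroblasts of the stroma are a main source of MMP2.

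The cell line and the host were checked through marker genes. Vimentin (VIM), an intermediate filament that this mesenchymal-like line makes in large amounts, was at 3797 to 5283 TPM over the 6 samples, and KRT18 was at 387 to 575 TPM. The receptor genes ESR1 and PGR and the adhesion gene CDH1 were at 0.36 TPM or less in each sample. EPCAM, the other gene of this list of luminal and epithelial markers, was at 3.66 to 6.02 TPM. Of 10 fibroblast markers, 7 reached 1 TPM in some sample. Their summed level was 66.3, 124 and 226 TPM in TC replicates 1, 2 and 3 and 479, 1007 and 91.5 TPM in TM replicates 1, 2 and 3. COL1A1 was the largest part of that sum, whereas DCN was at 0 in 5 samples and LUM was at 0.38 TPM or less. The summed level of 8 skeletal muscle markers was at most 8 TPM in TC, 175 and 473 TPM in TM replicates 1 and 2 and 2.73 TPM in TM replicate 3. TM replicates 1 and 2 thus stood apart from the other 4 samples in both lists. Of 8 neutrophil markers, 4 were at 0 in all samples, among them S100A8 and S100A9. In all, 7 of them were under 1 TPM throughout, and LCN2 reached 6.22 TPM in TM replicate 2. The sum of 8 macrophage markers was 95.4 to 107 TPM in TC and 102 to 109 TPM in TM. Most of that sum was CD68, at 84.8 to 94.2 TPM over the 6 samples. CD68 and ADGRE1 overlapped between the groups. PTPRC, ITGAM, CD163 and MRC1 were each at 0.46 TPM or less. CSF1R was lower in each TC sample than in each TM sample, with means of 2.44 and 5.43 TPM (limma adjusted p = 0.314). LYZ reached 1 TPM only in TM replicate 2, at 3.99 TPM.

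The members spanned a wide range of levels. MMP14 was highest, at a mean of 491 TPM over the 6 samples, followed by TIMP1 at 302 TPM, TIMP2 at 111 TPM and TIMP3 at 36.1 TPM. MMP2 followed at 20.1 TPM, and MMP1, MMP13, MMP9 and MMP3 had means of 3.97, 2.66, 1.05 and 0.908 TPM. The first 4 places were separate: each gene was above the next in all 6 samples, and the lowest MMP14 value (415 TPM) lay above the highest TIMP1 value (393 TPM). From TIMP3 downward each neighbouring pair overlapped over the samples. TIMP3 was above MMP2 in 4 of 6 samples, MMP1 above MMP13 in 3, and MMP9 above MMP3 in 3. The RNA of this system was therefore mostly that of MMP14, TIMP1 and TIMP2, and MMP14 made up 87.8% to 98.6% of the summed TPM of the 6 MMPs.

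**Figure D1:**
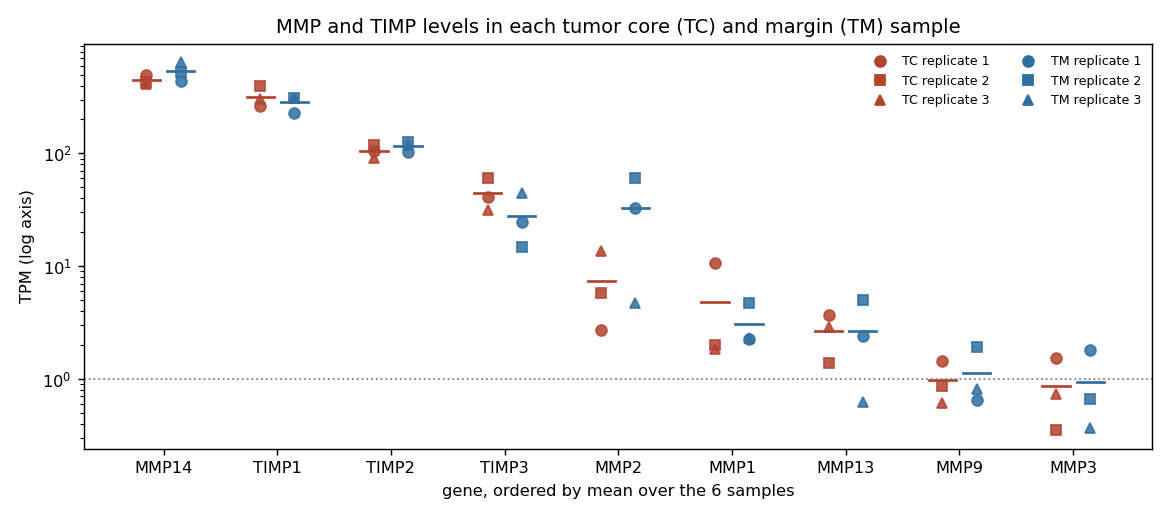
Level of each member in each sample, in TPM on a log axis, with the genes ordered by their mean over the 6 samples. Red marks are TC and blue marks TM, the marker shape gives the replicate, short bars are group means, and the dotted line is 1 TPM. MMP14, TIMP1 and TIMP2 formed tight clusters, while MMP2 ran from 2.73 to 60.8 TPM.

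Promoter sequence was available for 3 members, MMP14, TIMP1 and TIMP3, which are 3 of the 4 most abundant. The sequences, from RefSeq on GRCh38.p14, are shown to let the upstream regions of an MMP gene and of TIMP genes be compared. They run 5′ to 3′ on the plus strand and end where the first transcript annotated in GENCODE v29 begins. Capitals mark the GC box GGGCGG on either strand, which is the core of the sequence bound by SP1, a factor that the study followed.
MMP14 at chr14:22836335-22836556: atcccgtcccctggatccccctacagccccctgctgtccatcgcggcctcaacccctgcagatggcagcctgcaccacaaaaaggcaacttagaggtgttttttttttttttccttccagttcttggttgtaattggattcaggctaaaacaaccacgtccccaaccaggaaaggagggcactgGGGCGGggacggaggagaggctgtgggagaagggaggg
TIMP1 at chrX:47582186-47582312: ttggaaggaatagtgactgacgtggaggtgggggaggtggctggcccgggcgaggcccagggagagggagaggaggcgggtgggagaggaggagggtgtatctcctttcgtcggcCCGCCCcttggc
TIMP3 at chr22:32801455-32801700: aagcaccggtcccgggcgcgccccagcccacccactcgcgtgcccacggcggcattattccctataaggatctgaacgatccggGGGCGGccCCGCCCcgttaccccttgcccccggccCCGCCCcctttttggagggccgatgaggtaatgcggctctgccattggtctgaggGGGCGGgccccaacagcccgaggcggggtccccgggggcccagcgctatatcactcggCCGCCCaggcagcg
Of these bases 56.3%, 67.7% and 72.0% were G or C. In the 250 bases before the RefSeq start, the GC box was found 1 time for MMP14, 2 times for TIMP1 (the second lies in the part not shown) and 5 times for TIMP3, and 42.6% of 35116 promoters in the table held at least 1. The TATA box TATAAA (10.7% of promoters) and the AP-1 element TGAGTCA or TGACTCA (4.20%) were not matched in these 3 windows. A match of letters describes the sequence and does not show that a factor binds there. MMP1, MMP2, MMP3, MMP9, MMP13 and TIMP2 had no entry in the table.

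Differences of the MMP system between core and margin were then tested by limma on log2(TPM + 1). Of the 9 members, 7 reached 1 TPM in at least 3 samples and were tested, and MMP3 and MMP9 did not. The number called at an adjusted p-value under 0.05 was 0 of 7, where 0.137% of the 13861 genes tested were called (19 genes, 0.130% lower in TC and 0.00721% higher). The members again gave 0 of 7 at an unadjusted p-value under 0.05, against 16.2% of all genes (14.2% lower in TC and 1.93% higher). TC and TM values overlapped in all 9 members, and 22.2% of all genes tested had groups that did not overlap (18.9% lower in TC and 3.28% higher). The median difference of the 7 members was 0.13 on the log2 scale (TC minus TM), beside -0.14 over all genes tested, with 4 members above 0 and 3 below, where 67.0% of all genes were below 0. Because the samples are bulk tissue, fewer cells of a type and less RNA per cell cannot be told apart in any of these values.

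**Figure D2:**
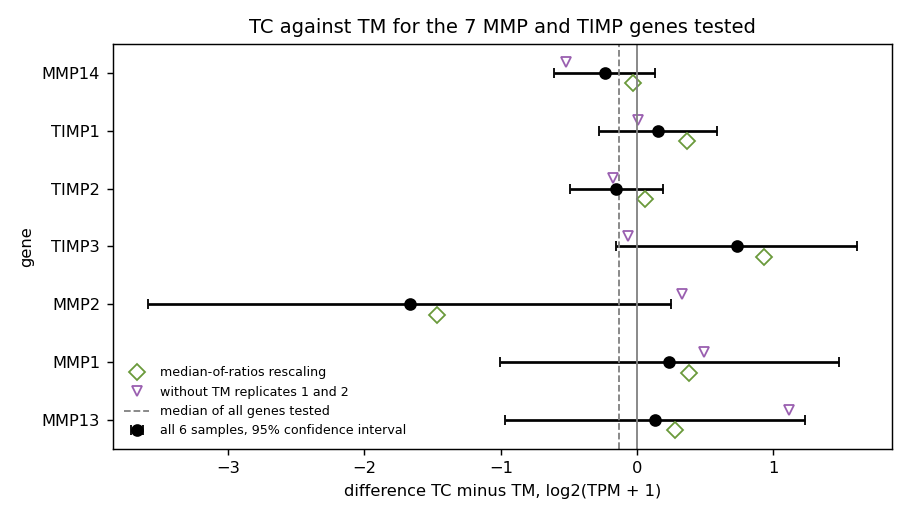
Log2(TPM + 1) in TC minus that in TM for the 7 members tested, with the limma 95% confidence interval (black). Green diamonds show the same difference after median-of-ratios rescaling and purple triangles the difference without TM replicates 1 and 2, and the dashed line is the median of all genes tested (-0.14). Each black interval includes 0, and the MMP2 and TIMP3 triangles lie on the other side of 0 from the black points.

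MMP14 (ENSG00000157227; chromosome 14, 22836557 to 22849027, plus strand, GENCODE v29 on GRCh38), the membrane-type 1 MMP, activates proMMP2 and cuts fibrillar collagen. It was at 498, 432 and 415 TPM in the TC samples, listed by replicate number here and for each gene that follows, and the TM samples had 436, 525 and 641 TPM. The highest value was TM replicate 3, and TM replicate 1 lay within the TC range. The means were 448 ± 43.9 and 534 ± 103 TPM (SD, n = 3), a log2 difference of -0.24 (SE 0.16, 95% confidence interval -0.61 to 0.13, limma adjusted p = 0.538). This difference was -0.028 after median-of-ratios rescaling, which moves the median of all genes from -0.14 to 0.049.

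MMP2 (ENSG00000087245; chromosome 16, 55389700 to 55506691, plus strand), gelatinase A, cuts denatured collagen and type IV collagen of basement membranes. Its values were 2.73, 5.80 and 13.6 TPM in TC and 32.7, 60.8 and 4.70 TPM in TM, in order of replicate. TM replicates 1 and 2 were above each TC sample, and TM replicate 3 was below 2 of the 3 TC samples. MMP2 was the most variable member, with a highest value 22.3 times its lowest, against 1.55 times for MMP14. The TC mean was 7.36 ± 5.58 and the TM mean 32.7 ± 28.1 TPM (SD, n = 3). The log2 difference of -1.67 (SE 0.84, 95% confidence interval -3.59 to 0.25) was the largest in size among the members and was not called (limma adjusted p = 0.389). Without TM replicates 1 and 2 it became 0.33 (limma adjusted p = 0.873), with the lone TM sample assumed to vary as the TC samples do, and without TM replicate 3 it was -2.67 (limma adjusted p = 0.0774).

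MMP2 put the 6 samples in the same order as the summed fibroblast markers (Spearman rho 1.00, Pearson r 0.998 of log values, n = 6, given as a description). That sum was nearly all collagen, with 92.2% to 98.9% of it from COL1A1, COL1A2 and COL3A1. The other 7 markers summed to 4.25, 4.53 and 5.71 TPM in TC and to 13.4, 11.1 and 7.15 TPM in TM, an order that MMP2 did not share. In TM replicate 1, 4.82 TPM of that sum was DCN, which was at 0 in the other samples. PDGFRB and FAP, a receptor and a surface protease of fibroblasts, were at 3.90 and 2.51 TPM in TM replicate 3, above each TC sample, whereas MMP2 in that sample was below 2 of the TC samples. POSTN went the other way: at 0.46 TPM in TM replicate 3 it was below 2 of the TC samples (0.54, 0.27 and 0.83 TPM), as MMP2 was. LUM, PDGFRA and THY1, each at 0.38 TPM or less in all samples, were not above each TC sample there either, and DCN was at 0. The order shared with MMP2 was that of COL1A1 and COL1A2, the largest parts of the sum. The gene of the whole tested set most like MMP2 was COL1A1 (r = 0.998), the main chain of type I collagen. COL1A1 was at 44.7, 83.8 and 161 TPM in TC and at 335, 698 and 62.9 TPM in TM, in order of replicate. In TC the ratio of MMP2 to COL1A1 TPM was 0.0611, 0.0692 and 0.0843, and in TM it was 0.0978, 0.0871 and 0.0748. This ratio moved 1.60 times between its lowest and highest sample, while MMP2 itself moved 22.3 times. The shared order includes TC, where replicate 3 was highest and replicate 1 lowest for MMP2 and for COL1A1. COL1A1 is set beside MMP2 for its likeness in these same samples. The steady ratio and the order inside TC are therefore not separate observations. The next genes most like MMP2 were ENSG00000228477 (r = 0.996) and TSPAN7 (r = 0.994), both of them under 7 TPM. The tumors grew in mice and no step that parts mouse from human reads was stated. How far host RNA entered the MMP2 values was not tested.

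**Figure D3:**
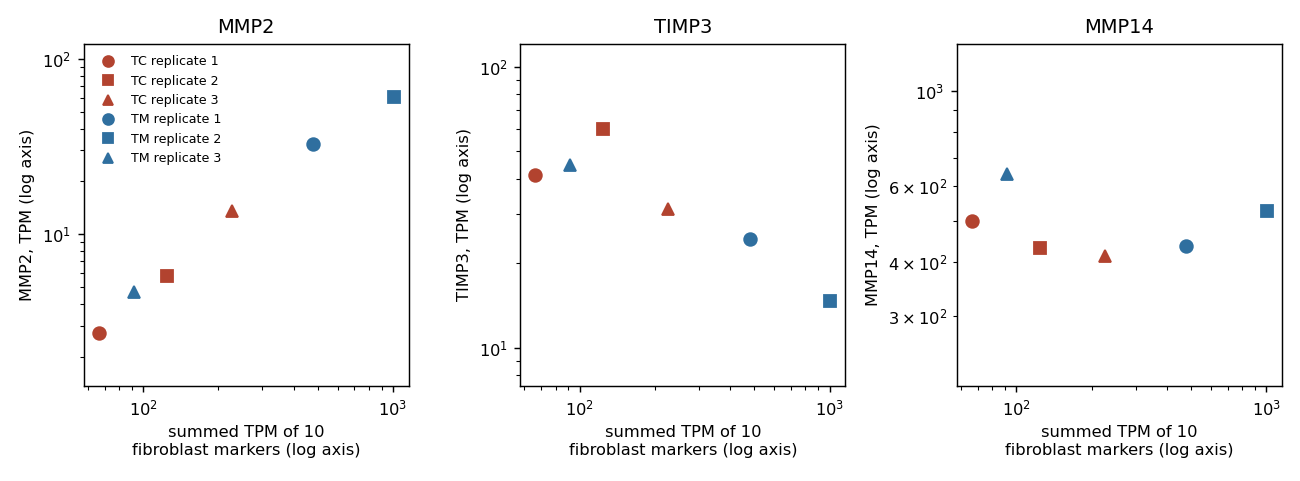
Level of MMP2, TIMP3 and MMP14 in TPM (vertical, log axis) against the summed TPM of 10 fibroblast markers (horizontal, log axis) in the 6 samples. Red is TC and blue is TM, and the marker shape gives the replicate. MMP2 is higher at each higher marker sum, from 2.73 to 60.8 TPM, TIMP3 is lowest in the samples with the highest sums (TM replicates 1 and 2), and MMP14 shows no such order.

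MMP9 (ENSG00000100985; chromosome 20, 46008908 to 46016561, plus strand), gelatinase B, is made by neutrophils and macrophages as well as by tumor cells. It was at 1.43, 0.87 and 0.61 TPM in TC and at 0.65, 1.91 and 0.82 TPM in TM, and the groups overlapped. Only 2 of 6 samples reached 1 TPM, so it was not tested with the filter, and without a filter its log2 difference was -0.085 (SE 0.31, limma adjusted p = 0.920). Of the 8 neutrophil markers, S100A8, S100A9, ELANE and MPO were at 0 in every sample. CSF3R, CXCR2 and CEACAM8 were at 0.18 TPM or less. LCN2 was at 1.76, 0.17 and 2.00 TPM in TC and at 1.19, 6.22 and 0.29 TPM in TM. How far RNA of mouse neutrophils would be counted on human genes was not tested.

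MMP1, MMP3 and MMP13 lie side by side with 6 other MMP genes on chromosome 11 (102520508 to 102955734, GENCODE v29 on GRCh38), all on the minus strand. This cluster was low as a whole: 6 of its 9 genes were under 1 TPM in all samples, MMP20 and MMP27 were at 0 throughout, and the highest single value was 10.7 TPM, for MMP1. MMP1 (ENSG00000196611; 102789920 to 102798160), the interstitial collagenase that opens the triple helix of fibrillar collagen, was at 10.7, 1.99 and 1.84 TPM in TC and at 2.25, 4.69 and 2.30 TPM in TM. TC replicate 1 was thus far above the other TC samples. The log2 difference was 0.24 (SE 0.54, 95% confidence interval -1.01 to 1.48, limma adjusted p = 0.880), and it turned to -0.43 without TC replicate 1 (limma adjusted p = 0.588).

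MMP13 (ENSG00000137745; 102942995 to 102955734), collagenase 3, which prefers type II collagen, was at 3.66, 1.38 and 2.90 TPM in TC and at 2.38, 5.02 and 0.62 TPM in TM. TM held both the highest and the lowest value. Its log2 difference was 0.13 (SE 0.48, 95% confidence interval -0.97 to 1.23, limma adjusted p = 0.931), and it turned to -0.074 without TC replicate 1 and to -0.36 without TM replicate 3. MMP3 (ENSG00000149968; 102835801 to 102843803), stromelysin 1, which activates other proMMPs, was at 1.52, 0.35 and 0.74 TPM in TC and at 1.81, 0.66 and 0.37 TPM in TM. In each zone replicate 1 was highest, and the groups covered nearly the same range. Without a filter the MMP3 difference was -0.037 (SE 0.37, limma adjusted p = 0.970). MMP1 and MMP3 share exon positions with the pseudogene WTAPP1 on the other strand, which was at 0 in 5 samples and at 1.23 TPM in TM replicate 2.

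TIMP1 (ENSG00000102265; chromosome X, 47582313 to 47586789, plus strand, within an intron of SYN1) is a secreted inhibitor of most MMPs that acts weakly on MMP14. It was at 261, 393 and 302 TPM in TC and at 229, 313 and 313 TPM in TM. TC replicate 2 was highest and TM replicate 1 lowest, with the other 4 values between 261 and 313 TPM. The means were 319 ± 67.3 and 285 ± 48.7 TPM (SD, n = 3), with a log2 difference of 0.16 (SE 0.19, 95% confidence interval -0.28 to 0.59, limma adjusted p = 0.753). Without TC replicate 2 the difference was -0.0051. The host gene SYN1 was at 0.05 TPM or less in all samples.

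TIMP2 (ENSG00000035862; chromosome 17, 78852977 to 78925387, minus strand) was the steadiest member, with a highest value 1.41 times its lowest. It was at 105, 119 and 90.2 TPM in TC and at 104, 127 and 118 TPM in TM. The zones overlapped over most of their range. The log2 difference was -0.15 (SE 0.15, 95% confidence interval -0.49 to 0.19, limma adjusted p = 0.677), close to the median of all genes, and it was 0.057 after median-of-ratios rescaling. An antisense gene that shares exon positions with TIMP2 (AC022966.1) reached 14.95 TPM in TM replicate 2 and was at 0 in TC replicates 2 and 3. The study's methods name an orientation setting for the alignment but do not say whether the library kit marked strand or whether counting used it, so reads of this pair may not be told apart.

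TIMP3 (ENSG00000100234; chromosome 22, 32801701 to 32863043, plus strand, within an intron of SYN3) is the inhibitor that stays bound to the matrix and that also blocks ADAM17. It was at 41.1, 60.3 and 31.2 TPM in TC and at 24.4, 14.7 and 44.8 TPM in TM. TM replicates 1 and 2 were below each TC sample, and TM replicate 3 was above 2 of the 3. The means were 44.2 ± 14.8 and 28.0 ± 15.4 TPM (SD, n = 3), a log2 difference of 0.73 (SE 0.39, 95% confidence interval -0.15 to 1.61) that was not called (limma adjusted p = 0.413). Without TM replicates 1 and 2 the difference was -0.068 (limma adjusted p = 0.954), without TM replicate 2 alone it was 0.36 (limma adjusted p = 0.693), and without TM replicate 3 it was 1.13 (limma adjusted p = 0.115). It was 0.48 without TC replicate 2 (limma adjusted p = 0.721). The TIMP3 difference thus rested on the same 2 samples as that of MMP2, with the opposite sign. Over the 6 samples its log values ran against those of MMP2 (r = -0.90) and of the summed fibroblast markers (r = -0.90), described over samples that share these libraries. The part of the TM samples' makeup in the TIMP3 values was not tested.

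The balance of proteases and inhibitors was described by ratios within each sample, which do not depend on the scaling between samples. The 6 MMPs summed to 518, 443 and 434 TPM in TC, and to 476, 598 and 650 TPM in TM. The 3 TIMPs summed to 408, 572 and 424 TPM in TC, and to 357, 455 and 476 TPM in TM. In TC their ratio was 1.27, 0.774 and 1.03, and the TM samples gave 1.33, 1.31 and 1.37. Each TM ratio was above each TC ratio, though TC replicate 1 was close to the TM samples, and the TC values were spread more widely (1.02 ± 0.249 against 1.34 ± 0.0267, SD, n = 3). All genes of both families gave ratios of 1.04 ± 0.251 in the core and 1.34 ± 0.0285 in the margin (SD, n = 3). The separation rested on MMP2 in TM replicates 1 and 2: with MMP2 left out of the sum, a choice made after seeing the data, TC gave 1.26, 0.763 and 0.993 and TM gave 1.24, 1.18 and 1.36, and the groups overlapped. The ratio of MMP14 to TIMP1, the most abundant gene of each kind, overlapped too, at 1.91, 1.10 and 1.37 in the core and 1.91, 1.68 and 2.05 in the margin. Ratios of summed TPM were not tested. They describe RNA, not active protease against inhibitor protein.

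The ratio of MMP14 to TIMP2, the pair that forms the receptor for proMMP2, was 4.72, 3.63 and 4.60 in the core and 4.21, 4.12 and 5.43 in the margin. Those groups overlapped, with means of 4.32 ± 0.601 and 4.59 ± 0.736 (SD, n = 3). For MMP2 to TIMP2 the core gave 0.0259, 0.0486 and 0.150 and the margin 0.316, 0.477 and 0.0398. It followed MMP2, with TM replicates 1 and 2 high and TM replicate 3 within the TC range. The MMP sum without MMP14 was 20.1, 10.4 and 19.7 TPM in TC and 39.8, 73.1 and 8.81 TPM in TM, and MMP2 supplied most of it in TM replicates 1 and 2.

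**Figure D4:**
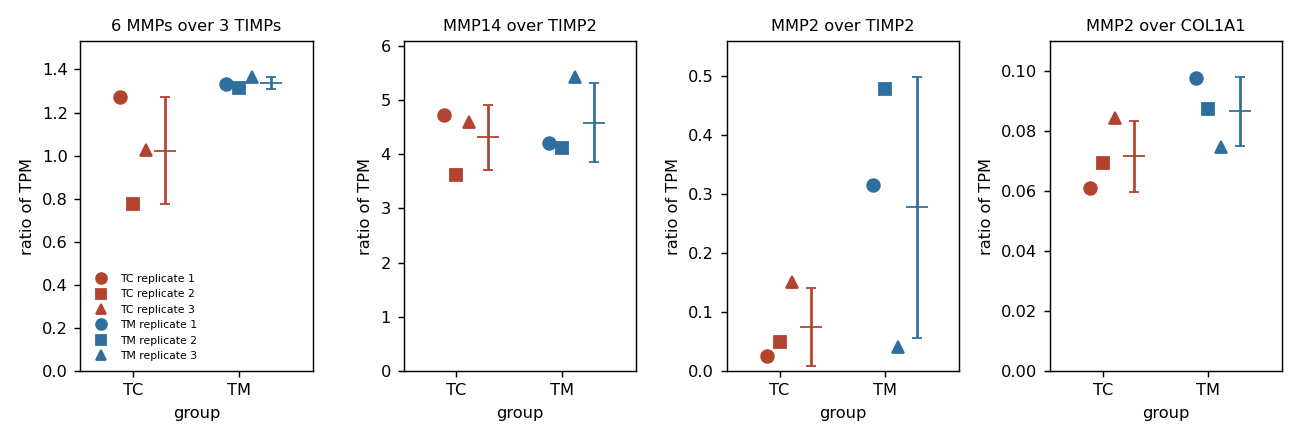
Ratios of TPM within each sample, by group: the 6 MMPs over the 3 TIMPs, MMP14 over TIMP2, MMP2 over TIMP2 and MMP2 over COL1A1. Points are samples (marker shape gives the replicate), and the bar beside them is the mean with its SD (n = 3). The first ratio is 0.774 to 1.27 in TC and 1.31 to 1.37 in TM, and the groups overlap in the other 3 panels.

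The rest of both families was low. Of 18 other MMP and TIMP genes, 6 passed the filter on low values and 0 were called (all genes: 0.137%). TIMP4, an inhibitor best known from the heart, had means of 11.8 ± 2.66 and 13.4 ± 1.99 TPM in core and margin (SD, n = 3), and those of MMP11, stromelysin 3, were 8.79 ± 1.01 and 8.08 ± 1.63 TPM. MMP19 averaged 3.86 ± 0.235 TPM in the core and 4.50 ± 0.216 TPM in the margin (SD, n = 3), without overlap between the groups, and its log2 difference was -0.18 (limma adjusted p = 0.732). It was the 1 gene of the 6 without overlap, against 22.2% of all genes. The membrane-type genes MMP15, MMP17 and MMP24 had means over the 6 samples of 3.21, 1.25 and 1.21 TPM and log2 differences of -0.24, 0.065 and 0.063, each with a standard error of nearly its own size or larger.

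Neighbouring proteases and regulators were then examined in lists. ADAM and ADAMTS genes encode sheddases and matrix proteases, only some of them inhibited by TIMP3. Of 28 such genes, 11 were tested and 0 were called (all genes: 0.137%). The median log2 difference was -0.37 (all genes: -0.14), and 9 of the 11 (81.8%) were below 0 (all genes: 67.0%). An unadjusted p-value under 0.05 was reached by 3 of them, each with lower levels in the core (all genes: 14.2%). ADAM8, a sheddase of leukocytes and invasive tumor cells, was at 1.66, 1.23 and 1.28 TPM in TC and at 3.11, 2.99 and 7.05 TPM in TM. Each TM value was above each TC value. The log2 difference was -1.10 (SE 0.32, limma adjusted p = 0.148), and it was -0.77 without TM replicate 3 and -1.76 without TM replicates 1 and 2. For ADAMTS17 the means were 1.03 ± 0.353 and 2.41 ± 0.527 TPM in TC and TM (SD, n = 3), which gave a log2 difference of -0.75 (limma adjusted p = 0.206). ADAM15 averaged 83.0 ± 8.58 and 109 ± 15.6 TPM (SD, n = 3), which gave -0.39 (limma adjusted p = 0.259).

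Of 21 activators, cofactors and other inhibitors of MMPs, 18 were tested and 0 were called (all genes: 0.137%). The unadjusted p-value was under 0.05 for 3 of them, each lower in the core, a share of 16.7% that is near the 14.2% of all genes. PCSK7, a proprotein convertase, was at 6.50, 6.26 and 5.37 TPM in TC and at 14.1, 10.4 and 13.2 TPM in TM. The groups were well apart, and the log2 difference of -0.94 (SE 0.20) had the smallest adjusted p-value among the members and the 4 lists (limma adjusted p = 0.0870). LRP1, an endocytic receptor that clears MMPs and their complexes with TIMPs, was at 16.8, 17.5 and 12.7 TPM in TC and at 22.3, 28.2 and 32.4 TPM in TM (log2 difference -0.78, SE 0.20, limma adjusted p = 0.124). Without TM replicates 1 and 2 the LRP1 difference was -1.02. FURIN, the convertase that removes the propeptide of MMP14, averaged 61.8 ± 4.26 and 76.2 ± 5.71 TPM (SD, n = 3). Its log2 difference of -0.30 (limma adjusted p = 0.303) became -0.088 after median-of-ratios rescaling. The urokinase gene PLAU and basigin (BSG), named here for their level after the values were seen, had means of 1452 and 947 TPM over the 6 samples. Their log2 differences of -0.11 and -0.039 did not exceed their standard errors.

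Genes of AP-1, ETS and RUNX factors, which are known regulators of MMP promoters, were measured as well. Of 24 genes 21 were tested and 0 were called (all genes: 0.137%). The 13 below 0 made up 61.9% (all genes: 67.0%), and the median log2 difference was -0.031 (all genes: -0.14). FOSL2, an AP-1 subunit, averaged 21.8 ± 2.53 TPM in the core and 28.7 ± 1.86 TPM in the margin (SD, n = 3), a log2 difference of -0.39 (limma adjusted p = 0.275). It was the 1 gene of this list with an unadjusted p-value under 0.05, a share of 4.76% where that of all genes was 16.2%.

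**Figure D5:**
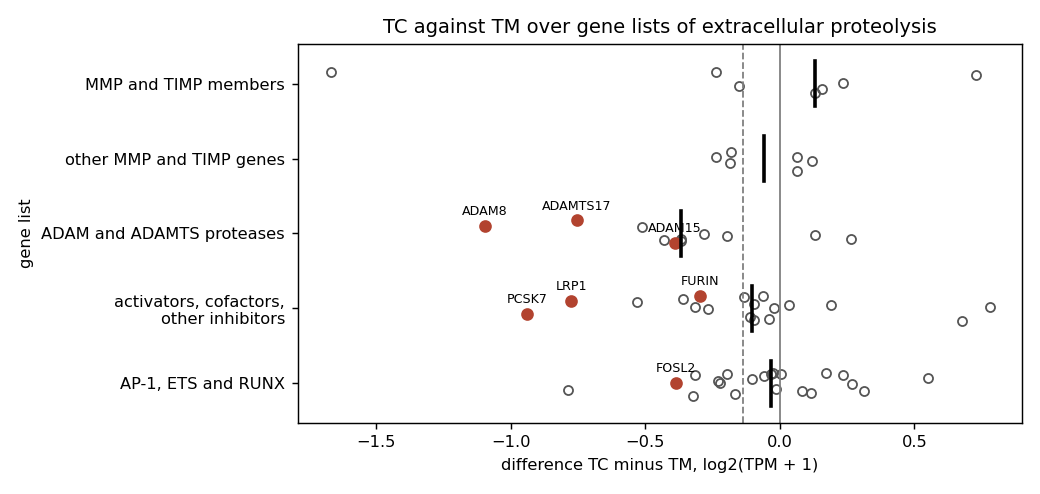
Log2(TPM + 1) in TC minus that in TM for each tested gene of 5 lists, with the list median as a black bar, the median of all genes tested as a dashed line and 0 as a solid line. Filled red points have an unadjusted p-value under 0.05 and are named, and open points do not. The 7 such genes are all lower in TC, 3 in each of the protease and the activator lists and 1 in the factor list, with 0 among the MMP and TIMP genes.

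For the other members, the tested genes with the most similar pattern over the 6 samples are given as a description, by Pearson's r of log2(TPM + 1) and with no test. The 3 most like MMP14 were CLP1 (r = 0.991), ENSG00000272638 (r = 0.977) and VPS9D1 (r = 0.975). For TIMP1 they were VPS28 (r = 0.998), APLP1 (r = 0.984) and MRPS6 (r = 0.966), and for TIMP2 FUT4 (r = 0.990), VPS11 (r = 0.986) and TCTN1 (r = 0.983). TIMP3 was most like HBE1 (r = 0.998), FAM229B (r = 0.994) and FLYWCH2 (r = 0.989). MMP1 was most like CCDC74B (r = 0.984), OSMR (r = 0.982) and DSE (r = 0.971), and MMP13 like SP100 (r = 0.998), CHRAC1 (r = 0.993) and ING3 (r = 0.988). By rank some were less alike: Spearman's rho was 0.486 for OSMR with MMP1 and 0.771 for VPS9D1 with MMP14. TC replicate 1 was the highest sample for both MMP1 and OSMR. A correlation above 0.95 was reached by 150 genes for MMP2 and by 11 to 41 genes for each of the other 6 tested members.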

How the data were processed

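RNA-seq was performed on 6 xenograft samples, 3 TC and 3 TM, grouped by sample title. The authors deposited 1 matrix of TPM, quantified per gene with RSEM after trimming with SeqPrep and Sickle, alignment with HISAT2 and assembly with StringTie. The submitters' processing notes name hg38. The annotation release and a step parting mouse from human reads were not given in the sources used here. Columns summed to 1000000, apart from TM replicate 3 (994381). Columns of other samples numbered 0. TPM keeps no depth, so DESeq2, the study's tool, could not be run. Precision was therefore judged from the spread between replicates, from which limma derives the standard errors behind its p-values. The study states that core and margin regions were separated, with 3 mice per group. Which TC and TM samples, if any, came from the same animal is not given.

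Symbols were found for 60401 of 60671 annotated genes. Of the marker genes, MYLPF was not matched. Gene positions are from GENCODE v29 (GRCh38, the build of hg38), which held 96.3% of the annotated genes. Values were transformed as log2(TPM + 1), which understates changes of low genes, and genes reaching 1 TPM in 3 or more samples were tested by limma 3.58.1 (R 4.3.3, mean-variance trend, two-sided, Benjamini-Hochberg adjustment over all genes tested). The test was also run on simulated data, whose outcome is not reported here and is not used to judge the results. Besides the members, the genes named are other family members that passed the filter, up to 5 genes per further list with an unadjusted p-value under 0.05, and the 3 genes most correlated with each tested member. The members and lists were chosen with earlier results of these data known. Alternatives were another pseudocount, other filters, 2 other scalings, TPM without mitochondrially encoded genes, inclusion of unannotated loci, a replicate block, other empirical Bayes settings and leaving out samples.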

Additional observations from a re-analysis of the deposited data

How the results depend on the processing

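In 17 alternative settings the 7 tested members and the 13 genes named from the other lists by the rule were called in 0 of 332 fits. MMP3, MMP9, PLAU and BSG were not followed there. Of the tested members, MMP14 kept its direction in every alternative run. The direction turned for TIMP2 after median-of-ratios rescaling (0.057), for TIMP4 after that rescaling (0.010) and quantile normalization (0.0022), and for MMP19 after quantile normalization (0.0011). Without TM replicates 1 and 2, an alternative chosen after seeing the data that leaves 1 TM sample, it turned for MMP2 (0.33), TIMP3 (-0.068), MMP11 (-0.0068) and TIMP4 (0.0050). The mean MMP to TIMP ratio of TM was 1.37 there, and it was 1.26 with MMP2 left out of the sum, also chosen after seeing the data. With each sample left out in turn, the difference ranged from -0.43 to 0.59 for MMP1, from -0.36 to 0.59 for MMP13, from -0.0051 to 0.29 for TIMP1, from -0.038 to 0.21 for MMP11, from -0.24 to 0.38 for MMP17 and from -0.32 to 0.74 for MMP24, from 0.36 to 1.13 for TIMP3 and from -2.67 to -0.95 for MMP2, the last 2 without a change of direction. The cause of these turns was not tested.

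The number of genes called over the whole matrix, 19, was 7 with a pseudocount of 0.1, 1 without a filter, 4 after quantile normalization, 6 after median-of-ratios rescaling, 12 without a trend, 47 with robust moderation, 195 without TM replicates 1 and 2, and 1 to 17 with each sample left out. With the replicate number as a block 1 gene was called, and the block changed no call among the members. Same-numbered TC and TM samples had no common sign in how they deviated (correlations of 0.211, -0.121 and -0.165 for replicates 1, 2 and 3). Differently numbered samples gave -0.232 to 0.317. Deviations from a mean of 3 samples constrain one another, so these correlations cannot decide which samples pair. The numbers were not taken as pairs. Depth is unknown, and the members under 2 TPM (MMP3 and MMP9) are those on which these data say least.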
